A study of Mus musculus with 4 samples.

Results

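Proximal tubule S3 cells were drawn from single-cell RNA sequencing of kidneys from aged mice given BPTES, a small-molecule inhibitor of glutamine breakdown, or its vehicle DMSO. A cell barcode was chosen by its raw UMI counts (unique molecular identifiers, each standing for 1 captured RNA molecule). It needed at least 500 UMIs, at least 300 genes and at most 50% of UMIs from mitochondrial genes. It also needed Lrp2 plus Slc34a1 of at least 2 UMIs, Slc7a13 of at least 5 and above Slc5a2 plus Slc5a12, Vcam1 plus Havcr1 of at most 1, and no UMI of Ptprc, Pecam1 or Cdh5. In all, 2736 of the 50605 barcodes that passed the quality limits met the rule, from 76278 barcodes in the files. They made up 14.0% of the 19551 barcodes with the proximal tubule signature.

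All animals were male C57BL/6 mice, 19 months old, treated for 1 month, with 2 libraries from BPTES-treated and 2 from DMSO-treated kidneys. Kidneys were digested with liberase, and each library mixed 20000 sorted CD45- cells with 9000 CD45+ cells of the same tissue. The sort therefore sets the ratio of leukocytes to other cells, but not the ratio among tubule cells. The labels do not say whether the libraries of a group came from separate animals, so p-values measure the spread between these libraries, which may be technical.

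The S3 segment is the last, straight stretch of the proximal tubule and lies in the outer stripe of the outer medulla. It finishes the uptake of sugars, amino acids and organic anions that the earlier S1 and S2 segments begin, and in male mice it carries many androgen-dependent genes. It is also the stretch most often injured when oxygen is short. Proximal tubule cells break down glutamine and excrete the ammonia it yields to balance acid.

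BPTES libraries 1 and 2 held 781 and 495 S3 cells, and DMSO libraries 1 and 2 held 745 and 715. Their summed depth was 24515785, 11908428, 20646756 and 22015769 UMIs in that order. Median UMIs per cell were 27407 and 20122 under BPTES and 24260 and 27545 under DMSO. BPTES library 2 was thus the shallowest and held the fewest cells. The median mitochondrial share was 9.27% and 15.4% against 11.6% and 13.7%, so the groups overlapped in it. Any pair of libraries shared 90 to 114 barcodes among all barcodes. Predicted doublets were 1.79% and 1.21% of S3 cells under BPTES and 0.940% and 1.12% under DMSO.

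The values that chose the cells are a description only. Slc7a13, an amino acid transporter of the apical membrane of S3, stood at 1007 and 1055 CPM (UMIs of a gene scaled to the summed UMIs of the library) in the summed S3 cells under BPTES and at 847 and 915 under DMSO. In S1-S2 cells, chosen by Slc5a2 or Slc5a12 and at most 1 Slc7a13 UMI, it was 1.77 to 2.94 CPM. Slc5a2, the early-segment glucose transporter, was 23.5 to 38.4 CPM in S3 sums and 609 to 935 in S1-S2 sums. The median S3 cell held 22 and 17 Slc7a13 UMIs under BPTES and 15 and 17 under DMSO. Just inside the threshold, 24, 24, 48 and 47 cells held 5 Slc7a13 UMIs in the BPTES and then the DMSO libraries. Just outside it, 35, 22, 67 and 43 cells held 4. A UMI of Slc5a2 or Slc5a12 was present in 33.4% to 40.7% of S3 cells by library.

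Genes that the rule did not use followed the label. Of 27 further genes of the S3 segment, 25 were higher in S3 than in S1-S2 sums in all 4 libraries, and none was lower in all 4. Acsm3, a medium-chain acyl-CoA synthetase, averaged 396 CPM in S3 and 5.74 in S1-S2 sums. Cyp2a4, a testosterone hydroxylase, averaged 429 and 8.16. The kidney androgen-regulated protein gene Kap averaged 49640 CPM in S3, against 1715 in S1-S2. Of 20 genes listed for S1 and S2, 12 were lower in S3 in all 4 libraries and 4 were higher, among them the organic anion transporter Slc22a6 and the glutamine transporter Slc38a3. These levels describe cells that were selected on related genes and carry no test.

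**Figure D1:**
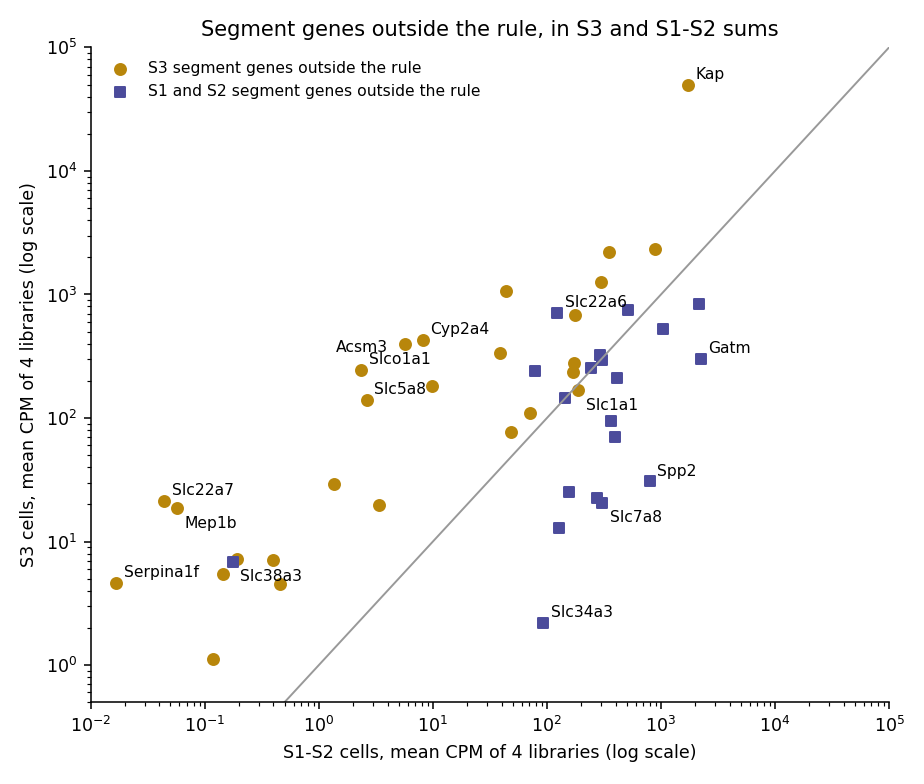
Mean CPM over 4 libraries of segment genes outside the rule, in S1-S2 sums (x axis, log scale) and S3 sums (y axis, log scale); the line marks equal levels. Circles are genes listed for S3, of which 25 of 27 were higher in S3 in all 4 libraries, and squares are genes listed for S1 and S2, of which 12 of 20 were lower in S3 in all 4.

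Reference windows are shown for 3 of the genes named by size of change, Hsd11b1 and Slco1a1 with the largest rises of that set and Spp1 with its largest fall, because the results turn on them. Each runs from 250 bases before to 50 after a transcription start in RefSeq, build GRCm38.p6, written 5′ to 3′ along the gene. Windows were found for 13 of the 22 genes named by size of change, and Slc7a13 had none. Capitals mark matches on either strand to 4 motifs. TATAAA, the core promoter element bound by TBP, occurs in 13.6% of 32851 windows of this length. TGANTCA, bound by AP-1, the dimer of Jun and Fos proteins, occurs in 7.81%. GTTAAT, a part of the site of the tubule factor HNF1, occurs in 7.10%, and the HNF4 motif CAAAGTCCA in 0.475%. Hsd11b1 lies on the minus strand, with its window at chr1:193242311-193242610, and holds none of the 4 motifs. That window surrounds a start inside the gene, which begins at 193264075 in the annotation used for gene positions. Slco1a1, on the minus strand at chr6:141946913-141947212, has 2 matches to the first motif on the opposite strand. Spp1, on the plus strand at chr5:104434861-104435160, has 1 match to the first motif and 1 to the HNF1 motif, which do not overlap. A match describes letters only.
Hsd11b1: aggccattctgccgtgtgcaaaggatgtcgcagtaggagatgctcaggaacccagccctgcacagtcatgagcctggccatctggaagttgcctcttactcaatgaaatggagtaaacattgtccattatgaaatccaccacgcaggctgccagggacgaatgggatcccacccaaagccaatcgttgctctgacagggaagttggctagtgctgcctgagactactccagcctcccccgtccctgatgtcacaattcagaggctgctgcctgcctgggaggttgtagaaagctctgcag
Slco1a1: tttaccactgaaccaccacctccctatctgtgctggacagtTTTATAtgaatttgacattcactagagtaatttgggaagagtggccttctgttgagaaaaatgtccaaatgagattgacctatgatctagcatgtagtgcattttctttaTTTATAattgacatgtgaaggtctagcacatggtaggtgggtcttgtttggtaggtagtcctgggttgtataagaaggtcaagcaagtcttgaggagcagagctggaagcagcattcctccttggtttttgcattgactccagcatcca
Spp1: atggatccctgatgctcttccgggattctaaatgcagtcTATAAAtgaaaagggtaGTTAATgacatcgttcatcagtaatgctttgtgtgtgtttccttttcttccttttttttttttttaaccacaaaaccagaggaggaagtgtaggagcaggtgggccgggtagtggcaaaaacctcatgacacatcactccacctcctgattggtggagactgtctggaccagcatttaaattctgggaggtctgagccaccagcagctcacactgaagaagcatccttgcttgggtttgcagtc

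Between the treatments, 122 of the 12783 genes tested in S3 cells differed (edgeR quasi-likelihood test on summed counts, adjusted p under 0.05), which is 0.954%. Of these, 22 were higher under BPTES (0.172% of genes tested) and 100 were lower (0.782%). At an unadjusted p under 0.05 there were 1640 of the 12783 genes, and 6639 had a positive fold change, which is the background for the list counts that follow. Groups did not overlap for 47.1% of all genes tested, so non-overlap alone says little with 2 libraries a group. The number of calls moved with single libraries. It was 607 without BPTES library 1, 328 without BPTES library 2, 227 without DMSO library 1 and 1 without DMSO library 2, the last being Spp1, with 845 genes at an unadjusted p under 0.05. The other calls in S3 cells given here were thus lost without DMSO library 2, but the changes stayed of similar size. The 121 of the 122 genes that could be fitted without it kept their sign, at 0.690 to 1.18 times the reported log2 change (median 0.958). Among the calls, 19 of the 100 lower genes and 1 of the 22 higher passed the low-count filter with both libraries of the lower group under its cutoff.

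Outside the immunoglobulin genes, Hsd11b1 rose most among the called genes with an average log2 CPM of at least 5, the level set for naming genes by size of change. It encodes the enzyme that regenerates active glucocorticoid from its inert 11-keto form and lies at chr1:193221634-193264075 (mm10, minus strand). Its normalised level was 52.9 and 48.0 CPM with BPTES and 15.8 and 17.5 CPM with DMSO. Both BPTES libraries lay about 3-fold above both DMSO libraries, with a log2 fold change of 1.60 (SE 0.12, adjusted p = 3.64e-05, edgeR). In leukocyte barcodes Hsd11b1 stood at 64.2 CPM under BPTES and 52.2 under DMSO, so that S3 sums were at 76.1% and 32.9% of the leukocyte level. Slco1a1, an organic anion transporter of the apical membrane under androgen control (chr6:141907282-141946962, minus strand), read 294 and 403 CPM under BPTES. Under DMSO it read 132 and 164 CPM. Its log2 fold change was 1.24 (SE 0.17, adjusted p = 0.0160). At an equal depth of 3000 UMIs a cell, Slco1a1 was seen in 47.9% and 54.3% of S3 cells under BPTES and in 26.3% and 26.0% under DMSO. In leukocyte barcodes at the same depth it was seen in 0.0331% to 0.377%, so the S3 shares lay above that background. Those barcodes were chosen with at most 1 UMI of Lrp2 plus Slc34a1, a limit on their tubule RNA.

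Hpd, which breaks down the tyrosine product 4-hydroxyphenylpyruvate, stood at 72.9 and 72.9 CPM under BPTES against 43.0 and 35.4 (log2 fold change 0.90, SE 0.12, adjusted p = 0.00460). Alas1, the first enzyme of haem synthesis, stood at 149 and 160.1 CPM against 99.3 and 97.8 (0.65, SE 0.11, adjusted p = 0.0123). For both, each BPTES library exceeded each DMSO library. Groups that do not overlap were a condition for naming genes by size, so this adds no support for any of them. The cytochrome P450 gene Cyp2d9 was 155 and 176 CPM against 113 and 103 (0.62, SE 0.11, adjusted p = 0.0211). Dnase1, the secreted nuclease that clears free DNA, was 709 and 774 CPM against 401 and 420.1 (0.85, SE 0.11, adjusted p = 0.00427). Its groups did not overlap, as the naming required. Dnajc12, a co-chaperone of the aromatic amino acid hydroxylases, was 447 and 441 CPM against 315 and 268, a log2 fold change of 0.61.

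Ly6a and Ly6e, both small GPI-anchored surface proteins, rose together. Ly6a read 730.4 and 831 CPM under BPTES and 453 and 444 with DMSO (log2 change 0.80, SE 0.11, adjusted p = 0.00549). Ly6e read 389 and 420 CPM against 271 and 224 (0.71, SE 0.12, adjusted p = 0.0158). Ly6a in S3 sums stood at 411% of its level in leukocyte sums under BPTES and at 269% under DMSO, and Ly6e at 45.8% and 30.6%. Azgp1, a secreted zinc-binding glycoprotein, closed the set at 194 and 207 CPM against 149 and 128 (0.53, adjusted p = 0.0466). Its call was also lost with at least 10 Slc7a13 UMIs required, at 0.43, and without the barcodes rich in fibroblast UMIs, at 0.51. Next in line, without passing, were the fatty acid hydroxylase Cyp4a12a (0.82, adjusted p = 0.0551), the kynurenine aminotransferase Aadat (0.49, 0.0584), the fatty acid receptor Cd36 (0.50, 0.0664) and the polyamine enzyme Odc1 (0.58, 0.0694).

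**Figure D2:**
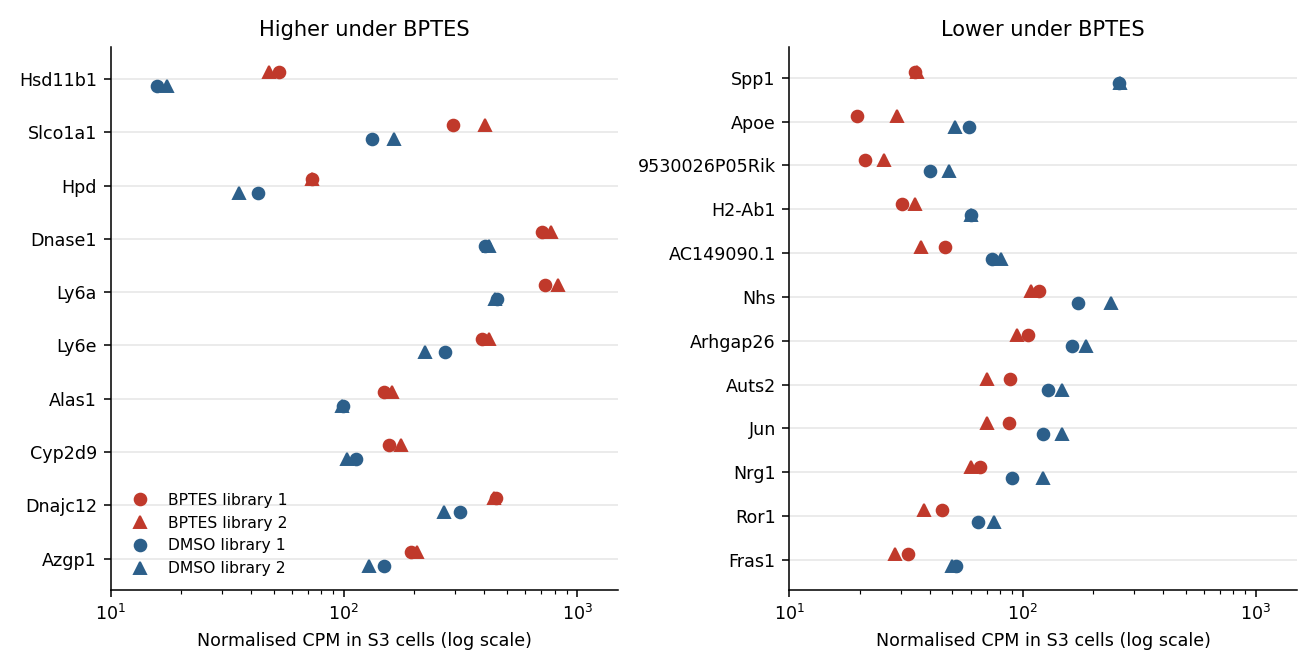
Normalised CPM (x axis, log scale) of the named genes called in S3 cells, one row a gene; circles are library 1 and triangles library 2 of BPTES (red) and DMSO (blue). Hsd11b1 lies at 52.9 and 48.0 against 15.8 and 17.5 CPM on the left, and Spp1 at 34.6 and 35.2 against 259 and 261 on the right.

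Of the 27 S3 segment genes, Slco1a1 and Mep1b rose, Agt and Slc22a13 fell, and the median log2 fold change was 0.21, against 0.01 over all genes tested. That median was 0.03 without BPTES library 2 and 0.11 without DMSO library 1. Mep1b, a brush border metalloprotease, read 23.3 and 22.5 CPM under BPTES and 14.0 and 15.1 under DMSO, a log2 change of 0.66. Its call was lost without DMSO library 1 as well, where the change was 0.59. Agt, the angiotensinogen gene, read 14.2 and 15.9 CPM against 23.2 and 25.6. Slc22a13, a urate and nicotinate transporter, read 4.64 and 5.05 CPM against 7.85 and 11.03, a log2 change of -0.97. Its call was lost under 6 of 15 alternatives, at -0.87 to -1.04 in 4 of them, -0.64 with counts per barcode capped and -0.70 without DMSO library 2. Acsm3 read 499 and 409 CPM against 336 and 341 (0.42, adjusted p = 0.127) and Cyp2a4 read 432 and 522 against 379 and 393 (0.31, adjusted p = 0.290). Both had higher values in both BPTES libraries, but neither passed. Of 11 androgen-regulated genes, Slco1a1 alone was called by edgeR, and DESeq2 called 2. Kap read 49792 and 62424 CPM under BPTES and 39405 and 48394 under DMSO (0.35, adjusted p = 0.483). Of 32 organic ion and drug transporters, 1 rose and 1 fell, the same Slco1a1 and Slc22a13.

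Spp1, which encodes the secreted phosphoprotein osteopontin, a common marker of stressed tubules, fell most among the genes named by size (chr5:104435118-104441050, plus strand). It stood at 34.6 and 35.2 CPM under BPTES and at 259 and 261 under DMSO. The 2 libraries of each group were nearly equal, and the groups lay 7.45-fold apart (log2 fold change -2.90, SE 0.11, adjusted p = 2.24e-08, edgeR). At 3000 UMIs a cell, 5.65% and 7.09% of S3 cells held a Spp1 UMI under BPTES and 21.2% and 20.4% under DMSO. Spp1 in S3 stood at 71.2% of its level in leukocyte barcodes under BPTES and at 127% under DMSO. That leukocyte level itself was 47.4 CPM under BPTES and 211 under DMSO, so Spp1 was lower there too. In leukocyte barcodes the shares of cells were 6.50% and 5.51% against 11.04% and 13.9%. The BPTES shares in S3 were near those in leukocytes, and the DMSO shares were above them. The part of free RNA from other cells in the fall of Spp1 was not tested. In S1-S2 cells the shares were 70.5% and 72.6% against 69.2% and 79.7%. The Spp1 molecules of S3 were uneven among cells: the 10 cells with most held 51.4% to 55.5% of them in each library. In DMSO library 2 a single barcode held 1381 of the 5890 Spp1 UMIs. Spp1 was called under all 15 alternatives run, with a log2 change of -2.21 with counts per barcode capped at the 99th percentile and -3.77 with no Vcam1 and Havcr1 limit.

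Of 39 measured genes of tubular injury outside the rule, 4 fell, none rose, 31 had a negative fold change and the median was -0.41, against 0.01 over all genes tested. The median was -0.80 without BPTES library 1 and -0.70 with no Vcam1 and Havcr1 limit. Besides Spp1 these were Nrg1, an EGF-family ligand, Dcdc2a, a ciliary microtubule protein, and Cxcl1, a neutrophil chemokine. Dcdc2a read 14.8 and 17.7 CPM against 27.7 and 36.6 (SE of the log2 change 0.16, adjusted p = 0.0160). The call of Dcdc2a in S3 cells was lost when the limit on Vcam1 and Havcr1 was dropped, with a log2 change of -1.13 there. Cxcl1 was scarce, at 0.320 and 0.276 CPM against 1.76 and 2.04, and passed the low-count filter only through the DMSO libraries, so its call adds nothing to the count. That call was lost with counts per barcode capped, at -1.97 against -2.62. Lcn2, which encodes the injury marker NGAL, stood at 0.0800 and 0 CPM against 0.464 and 0.576 and did not pass (adjusted p = 0.127). Lcn2 too passed the low-count filter only through the DMSO libraries. The 31 negative fold changes and the median of -0.41 include such genes, for which the filter favoured a fall.

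The limit on Vcam1 and Havcr1, adhesion and injury molecules of failed repair and acute damage, left out few cells under BPTES and more under DMSO. It removed 2 of 783 and 1 of 496 otherwise matching cells in the BPTES libraries, or 0.255% (exact 95% interval 0.0309% to 0.920%) and 0.202% (0.00510% to 1.12%). In the DMSO libraries it removed 22 of 767 and 20 of 735, or 2.87% (1.81% to 4.31%) and 2.72% (1.67% to 4.17%). These intervals cover counting error only, and the shares carry no test because the limit is part of the rule. Dropping the limit gave 235 calls in S3 cells, 43 of them higher.

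After their values were seen, 4 further genes called lower were singled out. The complement inhibitor Cfi read 1.72 and 2.02 CPM under BPTES and 7.94 and 9.31 with DMSO (log2 change -2.23, SE 0.22). The complement component C4b read 3.56 and 6.80 CPM against 16.2 and 16.2 (-1.74, SE 0.25). Prom1, a membrane protein of microvilli, read 11.03 and 11.7 CPM against 23.6 and 28.3 (-1.20, SE 0.14). Wfdc2, a secreted protease inhibitor, read 7.60 and 5.24 CPM against 13.8 and 15.8 (-1.16, SE 0.18). All 4 had both BPTES libraries below both DMSO libraries, but they were picked from called genes with these values known. Groups did not overlap for 47.1% of all genes tested, so the separation adds no support.

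**Figure D3:**
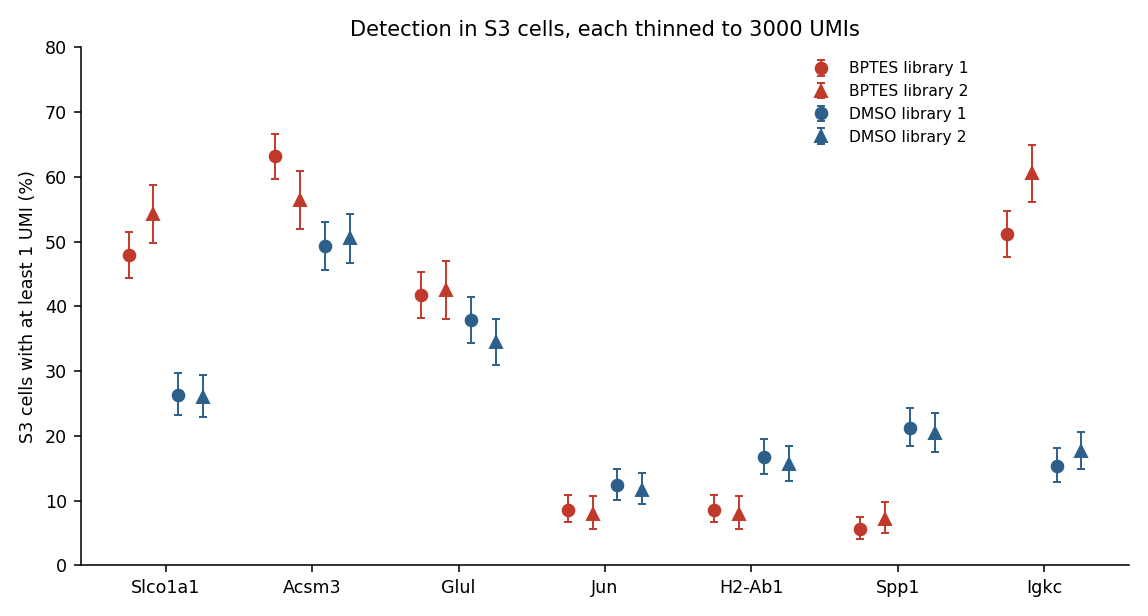
Share of S3 cells with at least 1 UMI of a gene (y axis, percent) after every cell was thinned to 3000 UMIs; markers are the 4 libraries and bars exact 95% binomial intervals for counting error. Spp1 lies at 5.65% and 7.09% under BPTES and 21.2% and 20.4% under DMSO, while Slco1a1 lies at 47.9% and 54.3% against 26.3% and 26.0%.

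Of 32 immediate early and dissociation genes, 4 fell, none rose, 29 had a negative fold change and the median was -0.69, or -0.43 without DMSO library 2. Jun, a subunit of AP-1, read 87.0 and 70.2 CPM under BPTES and 123 and 148 with DMSO (log2 change -0.78, SE 0.13, adjusted p = 0.0209). Fosb, another AP-1 subunit, read 7.32 and 3.95 CPM against 16.4 and 14.9 (-1.39). Zfp36, which destabilises cytokine messages, read 10.4 and 13.8 against 19.3 and 24.2 (-0.88). The Notch target Hes1 read 5.64 and 5.70 against 10.4 and 10.2 (-0.87). The 10 highest cells held 36.7% to 56.8% of Jun UMIs by library and 71.1% to 95.3% of Fosb UMIs. Besides DMSO library 2, Jun (-0.72) and Fosb (-1.34) lost the call with at least 3 Slc7a13 UMIs, Fosb (-1.34) and Hes1 (-0.87) without DMSO library 1, Hes1 (-0.87) with DESeq2, and Zfp36 (-0.85) without the barcodes rich in fibroblast UMIs. The log2 changes in parentheses were close to those reported. These genes respond to tissue digestion, and the part of the digestion in the result was not tested.

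Of 37 interferon and antigen presentation genes, 4 fell, and Ly6e, above, rose. The 4 were the class II genes H2-Ab1, H2-Aa and H2-Eb1 and their invariant chain gene Cd74. H2-Ab1 read 30.3 and 34.5 CPM under BPTES and 60.2 and 59.8 with DMSO (log2 change -0.89, SE 0.12, adjusted p = 0.00443). Cd74 read 38.4 and 39.7 CPM against 67.6 and 67.0 (-0.79). H2-Eb1 and H2-Aa had fold changes of -0.73 and -0.60, and H2-Aa also lost its call without DMSO library 1, at -0.64. H2-Ab1 in S3 stood at 0.702% of its level in leukocyte barcodes under BPTES and at 1.08% under DMSO, and Cd74 at 0.378% and 0.559%. At 3000 UMIs H2-Ab1 was seen in 8.60% and 7.89% of S3 cells against 16.7% and 15.6%, and in S1-S2 cells in 8.40% and 7.83% against 13.2% and 14.3%. The summed level of 25 leukocyte markers in S3 sums was 104 and 94.8 CPM under BPTES and 155 and 158 under DMSO. None of them was at 0 in all libraries. Cd74 is 1 of these markers, so the sum counts its fall again. The part of free leukocyte RNA in the fall of the class II genes was not tested.

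Apoe, a lipid carrier made by macrophages and by tubule cells, fell in S3 from 58.7 and 51.4 CPM under DMSO to 19.4 and 28.9 under BPTES (log2 fold change -1.21, SE 0.18, adjusted p = 0.0196). It stood at 1.51% and 1.55% of the leukocyte level, which itself was 1527 CPM under BPTES and 3673 under DMSO. In DMSO library 1 a single S3 barcode held 374 of the 1264 Apoe UMIs, and with counts per barcode capped the change was -0.86 and still called. The part of leukocyte RNA in the fall of Apoe was not tested. Nhs, a regulator of actin remodelling, read 117 and 109 CPM against 173 and 240. Arhgap26, a GTPase-activating protein, read 106 and 94.3 CPM against 163 and 186. Auts2, a neurodevelopmental regulator of transcription, read 88.4 and 70.1 CPM against 128 and 148. Nrg1, above, read 65.6 and 59.8 CPM against 90.3 and 122, and lost its call under 6 of 15 alternatives. Its log2 change was -0.75, and -0.72 to -0.77 in all of those 6 but the one without DMSO library 2, where it was -0.52. The receptor tyrosine kinase gene Ror1 read 45.3 and 37.8 against 64.5 and 75.2, and Fras1, of the basement membrane, 32.3 and 28.5 CPM against 51.8 and 49.9. Nhs, Auts2 and Ror1 also lost the call with at least 3 Slc7a13 UMIs, at -0.82, -0.80 and -0.68. The annotated RNAs 9530026P05Rik and AC149090.1 fell by 0.94 and 0.88 on the log2 scale.

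Gene length moved with the direction of the calls. The 99 lower genes with coordinates spanned a median of 133 kb, the 22 higher genes 10.1 kb and all tested genes 23.9 kb. Without the 19 genes whose DMSO UMIs lay mostly in single barcodes, described next, the other 80 lower genes spanned a median of 107 kb. Malat1, an RNA kept in the nucleus, was 12693 and 9661 CPM in S3 sums under BPTES and 14206 and 16991 under DMSO. Whether intronic reads were counted is not given in the sources used here. The part of nuclear RNA content in the fall of long genes was not tested.

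Genes of fibroblasts were called lower, most of them with their UMIs concentrated in 2 barcodes. Of the 100 lower genes, 19 had over 50% of their DMSO UMIs in the top barcodes of the libraries, among them Col1a1, Col1a2, Col3a1, Pdgfra and Gpc6. Of these 19 genes, 15 passed the low-count filter only through the DMSO libraries, so their calls say nothing beyond that. Summed over Col1a1, Col1a2, Col3a1, Dcn, Lum, Pdgfrb and Pdgfra, 389 of 417 UMIs in DMSO library 1 and 167 of 254 in DMSO library 2 came from 1 barcode each. Those barcodes held 48554 and 44280 UMIs, and neither was a predicted doublet. No BPTES barcode held 10 or more such UMIs. Without the 2 barcodes, 97 genes were called, 22 higher and 75 lower, and 91 of them were among the 122. Of the 19 genes, 5 could still be fitted and none of those was called (edgeR), with log2 changes of -3.11 for Bgn (-4.21 before), -1.63 for Prkg1 (-3.37), -1.20 for Cped1 (-2.47), -0.69 for Adamtsl1 (-2.26) and -0.54 for Cald1 (-2.46). The other 14 fell below the count filter. Mgp, a matrix protein gene outside the 19, read 1.44 and 1.01 CPM against 7.66 and 12.7 and was called. Without the 2 barcodes it had a log2 change of -2.40 and was not called (adjusted p = 0.579).

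Immunoglobulin RNA was higher in S3 sums under BPTES. Igkc, the kappa light chain constant gene of plasma cells, read 217 and 326 CPM in S3 sums under BPTES and 52.5 and 48.5 with DMSO (log2 change 2.43, SE 0.19, adjusted p = 0.00330). Of S3 cells, 99.2% and 100% held an Igkc UMI under BPTES and 75.3% and 74.3% under DMSO. At 3000 UMIs the S3 shares were 51.2% and 60.5% against 15.3% and 17.6%, and those of S1-S2 cells 60.1% and 66.8% against 20.8% and 20.3%. The 10 plasma cell markers summed to 477 and 576 CPM in S3 sums under BPTES and 188 and 169 under DMSO. Igkc in S3 stood at 0.810% and 1.06% of its leukocyte level. At equal depth its share in S3 was below that in S1-S2 cells in every library, and the part of free RNA from plasma cells in the rise was not tested.

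Glul, which makes glutamine from glutamate and ammonia, read 205 and 213 CPM in S3 sums with BPTES against 173 and 153 with DMSO, and did not pass (log2 change 0.35, SE 0.11, adjusted p = 0.167). Of 25 tested genes of glutamine, glutamate and ammonia, none was called by edgeR or by DESeq2, with 5 at an unadjusted p under 0.05 and a median of 0.09, or 0.02 without BPTES library 2. Asns, which uses glutamine to make asparagine, was near the floor at 0.800 and 1.10 CPM against 2.93 and 2.39 (adjusted p = 0.0664). Of 30 genes of the ATF4 response to amino acid shortage none was called by either tool, with 6 at an unadjusted p under 0.05. Of 24 amino acid transporters none was called by either tool, with 3 at an unadjusted p under 0.05, and 19 had a negative fold change.

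Calls among energy and stress genes of S3 are given by list, beside 0.954% called over all genes tested. Of 55 genes of fatty acid oxidation and peroxisomes edgeR called none and DESeq2 2, with 8 at an unadjusted p under 0.05. All 72 tested nuclear genes of the respiratory chain had a positive fold change with a median of 0.10, but none was called by either tool and none had an unadjusted p under 0.05. Of 21 heat shock genes, 20 had a positive fold change, with 8 at an unadjusted p under 0.05, none called by edgeR and 2 by DESeq2. Hspa8, the constitutive chaperone, read 1286 and 1605 CPM against 1036 and 1059 (0.46, adjusted p = 0.127). Of 28 cytochrome P450 genes Cyp2d9 rose and Cyp2j9, an epoxygenase, fell, from 15.5 and 14.0 CPM to 6.96 and 6.71. DESeq2 called 2 higher and 3 lower in this list. Of 48 glutathione and antioxidant genes edgeR called Gpx6 higher and Gsta1 lower, Gpx6 at 1.08 and 0.827 CPM against 0.0464 and 0.0886, and Gsta1 at 0.0800 and 0.184 against 0.789 and 1.29. Each passed the low-count filter only through the group where it was high, so these 2 calls say nothing of the list. DESeq2 called neither. The call of Gsta1 in S3 cells (log2 change -3.13) was lost under 6 of the 14 alternatives that could be fitted, at -2.49 to -3.24, and the Gpx6 call (3.73) under 3 of 12, at 3.36 to 4.22. A single barcode held 7 of the 9 Gpx6 UMIs in BPTES library 2 and 16 of the 29 Gsta1 UMIs in DMSO library 2.

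Of 39 senescence and p53 genes edgeR called 1 and DESeq2 2, with 11 at an unadjusted p under 0.05. Eda2r, a p53 target of the TNF receptor family, fell from 3.39 and 2.79 CPM to 0.920 and 0.551 (log2 fold change -1.97, SE 0.36, adjusted p = 0.0211). The call of Eda2r in S3 cells was lost without DMSO library 1 as well, at -1.84. Cdkn1a, the p21 inhibitor of cyclin-dependent kinases, read 23.5 and 15.7 CPM against 30.9 and 27.1 and did not pass (-0.53, adjusted p = 0.246). Col8a1 had 8 and 3 UMIs in S3 sums under BPTES and 6 and 4 under DMSO, too few for the test. Of 31 genes of gluconeogenesis, glycolysis and glucose transport, 30 of sterol metabolism, 40 of endocytosis and lysosomes and 20 of S1 and S2, none was called by edgeR. At an unadjusted p under 0.05 these lists held 2, 7, 3 and 2 genes, and DESeq2 called 1 in all, among the S1 and S2 genes. Of 19 circadian clock genes edgeR called none and DESeq2 1, with 2 at an unadjusted p under 0.05.

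**Figure D4:**
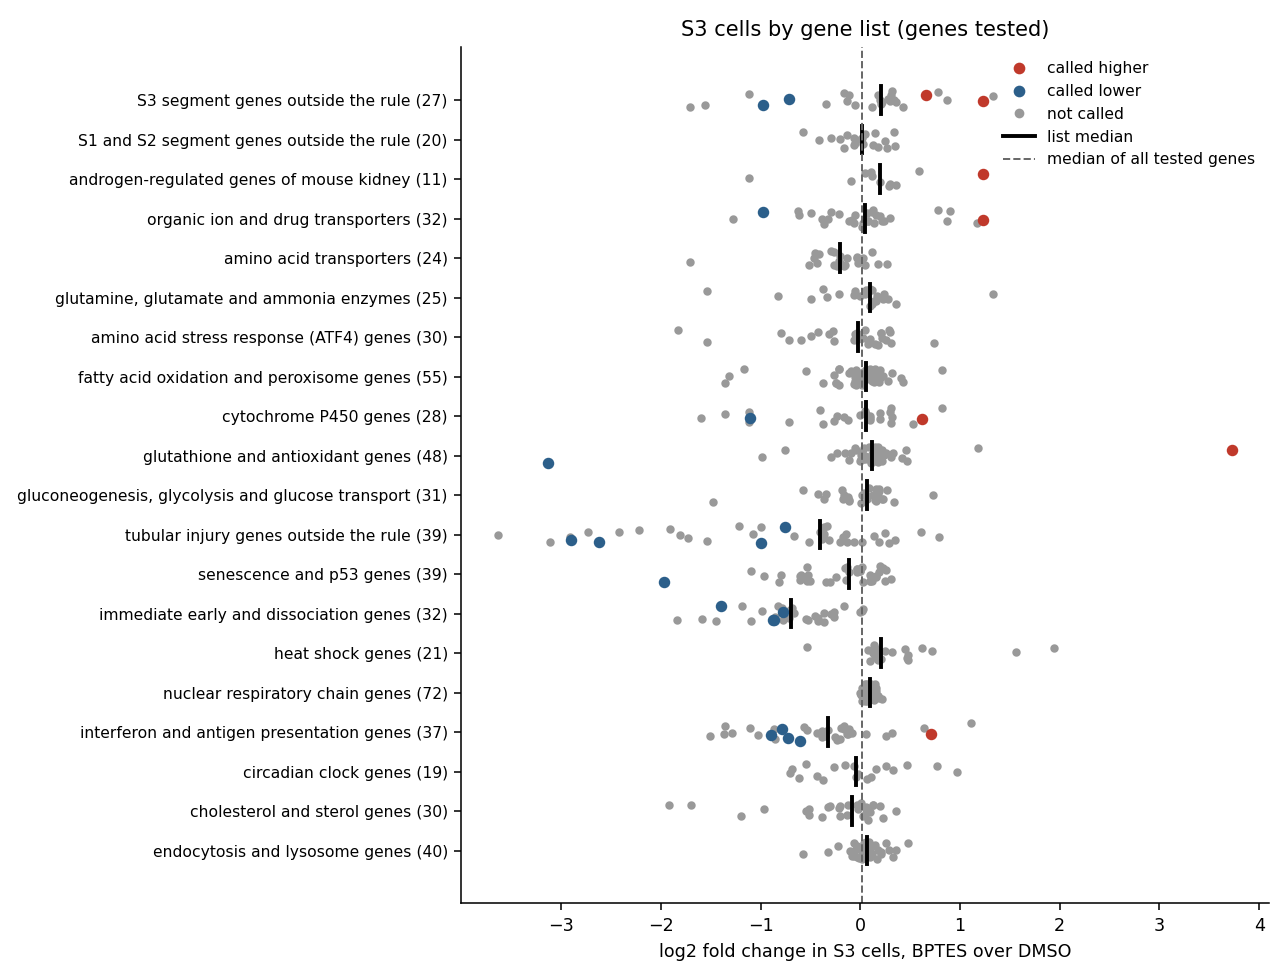
Log2 fold change in S3 cells, BPTES over DMSO (x axis), of each tested gene in 20 gene lists (rows, number of genes tested in brackets); red and blue points were called higher and lower, grey points were not called. Black bars are list medians, lowest for immediate early genes at -0.69, and the dashed line is the median of all tested genes at 0.01.

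The treatment effect was then compared between S3 and S1-S2 cells of the same libraries, in 1 model with a term for each library. The effect differed for 2482 of 15003 genes tested (edgeR, adjusted p under 0.05), or 16.5%. This count also moved with single libraries: it was 0 without BPTES library 1, with 3905 genes at an unadjusted p under 0.05. It was 1565 without BPTES library 2, 1873 without DMSO library 1 and 1469 without DMSO library 2. The depth and mitochondrial share of the sets also differed, with median mitochondrial shares of 14.3% to 23.4% in S1-S2 cells, and their part in the result was not tested.

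The effect on Hsd11b1 was greater in S3 than in S1-S2 cells. In S1-S2 sums it read 1.82 and 1.61 CPM under BPTES and 1.86 and 2.26 under DMSO, and the effects differed by 1.85 (SE 0.15, adjusted p = 0.00144). Its S1-S2 level was a small share of that in S3, so the comparison rests on low counts there. Alas1 and Dnajc12 were well expressed in both sets and also differed, by 0.52 (SE 0.10) and 0.51 (SE 0.07). Alas1 read 99.8 and 125 CPM in S1-S2 sums under BPTES and 97.7 and 107 under DMSO. The effect on Dnase1 differed by 0.14 (SE 0.08, adjusted p = 0.267), and S1-S2 cells had a log2 fold change of 0.70 (SE 0.09) beside 0.85 in S3.

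Among the falls, Spp1 read 798 and 878 CPM in S1-S2 sums under BPTES and 1006 and 1523 under DMSO. On the log2 scale, though not in CPM, its fall was larger in S3, with a difference of -2.33 (SE 0.20, adjusted p = 0.00627). Apoe fell in S3 but read 269 and 304 CPM against 240.2 and 260.3 in S1-S2 sums, a difference of -1.43 (SE 0.14, adjusted p = 0.00245). For Jun, H2-Ab1, Cd74 and Igkc the differences were -0.11, -0.09, 0.06 and 0.04, with adjusted p of 0.645, 0.673, 0.739 and 0.792. A p this high does not show that the segments responded alike.

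Among the genes with the lowest p for the difference, 5 besides Hsd11b1 are named, and each had a larger fold change in S1-S2 than in S3 sums or one of the opposite sign. Slc16a10, an aromatic amino acid transporter of the basolateral membrane, read 18.1 and 17.2 CPM in S3 under BPTES and 23.2 and 25.2 under DMSO. In S1-S2 it read 279 and 326 CPM against 116 and 151, and the difference was -1.63 (SE 0.13, adjusted p = 0.00129). Cndp2, a cytosolic dipeptidase, read 2027 and 1824 CPM in S3 against 1813 and 1548, and 117 and 99.8 in S1-S2 against 199 and 194 (difference 1.05, SE 0.08). Atp2a2, the calcium pump of the endoplasmic reticulum, differed by -0.84, the RNA Gm26917 by -1.10 and Ccdc141, a centrosomal protein gene, by -1.60. Acsm3 and Cyp2a4 differed by 1.61 and 0.79, with S1-S2 levels under 10 CPM in every library. Glul differed by 0.41 (SE 0.08, adjusted p = 0.0134), with S1-S2 levels of 171 and 178 CPM against 182 and 181.

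**Figure D5:**
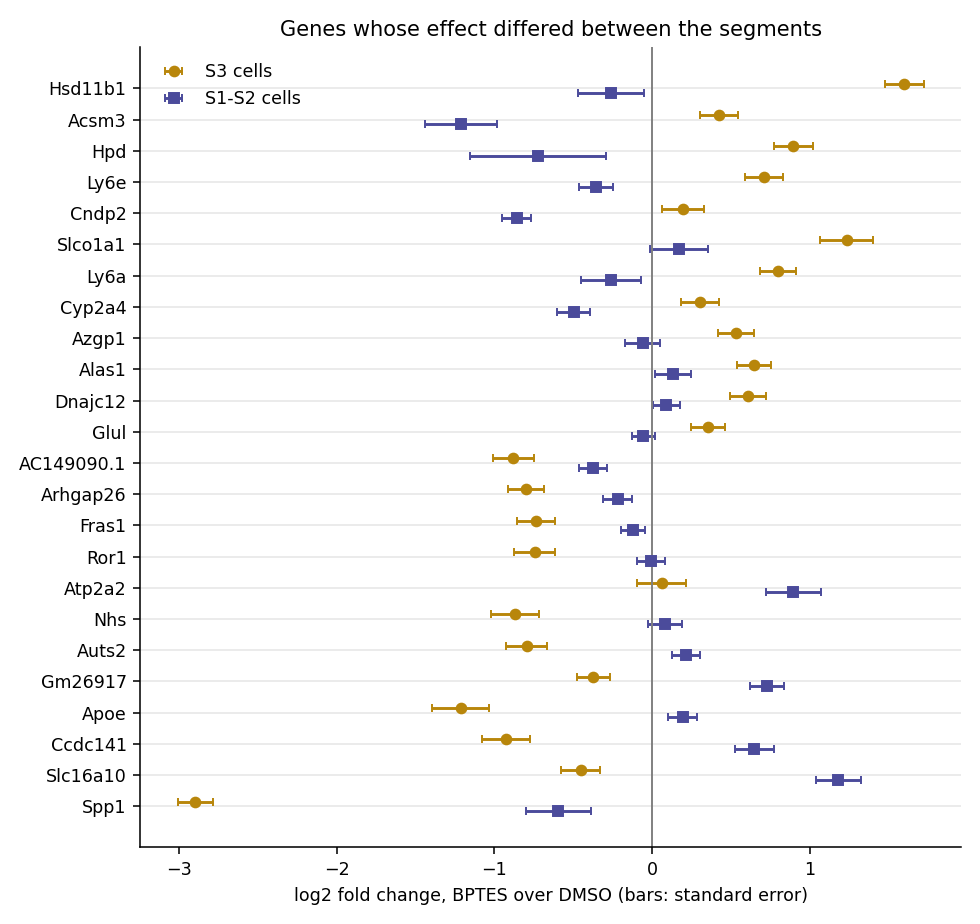
Log2 fold change, BPTES over DMSO (x axis, bars are standard errors), in S3 cells (circles) and S1-S2 cells (squares) for the 24 flagged genes. These are not all the named genes whose effect differed, and over all genes tested 16.5% differed. Among the 24, Hsd11b1, at the top, has the highest difference at 1.85 and Spp1, at the bottom, the lowest at -2.33.

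The share of S3 cells among proximal tubule cells was 14.9% and 9.84% with BPTES against 14.9% and 16.7% with DMSO, with BPTES library 1 between the DMSO libraries. The means were 12.4% ± 3.59 (SD, n = 2) and 15.8% ± 1.29 (SD, n = 2), a difference of -3.42 percentage points. The exact two-sided permutation test gave p = 0.667, and 2 against 2 libraries cannot go below 0.333, so it decides nothing. The share is also set by the rule that chose the cells. Since a cell needs 5 Slc7a13 UMIs, the share also moves with depth: with each cell thinned to 3000 UMIs and the same limit it averaged 3.57% under BPTES and 3.71% under DMSO.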

How the data were processed

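Single-cell libraries were made with the 10x GEM-X 3' v4 chemistry and processed with Cell Ranger 8.0.1 on mm10, per the submitters' processing notes. The authors deposited filtered UMI counts per gene and barcode, as whole numbers. The gene annotation, the treatment of intronic reads and the number of animals per library are not given in the sources used here. Library totals were 249881074 to 297947661 UMIs. Counts were summed per library over S3 cells and S1-S2 cells (Slc5a2 plus Slc5a12 of at least 2 UMIs, at most 1 of Slc7a13). The S1-S2 cells also met the quality, Lrp2 plus Slc34a1, Vcam1 plus Havcr1, Ptprc, Pecam1 and Cdh5 limits of the S3 rule. Counts were also summed over leukocyte barcodes (at least 2 Ptprc UMIs, at most 1 of Lrp2 plus Slc34a1). The transgene feature tdTomato was left out of the fits.

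Sums were tested with edgeR 4.0.16 (robust quasi-likelihood, TMM scaling, filterByExpr) in R 4.3.3, and p-values were adjusted by Benjamini-Hochberg over all genes tested, with a threshold of 0.05. The difference between segments was a segment by treatment term in a model with a term for each library. Each SE is the absolute log2 fold change divided by the square root of the quasi-likelihood F statistic. DESeq2 1.42.0 was an alternative, with other scaling, filters, cell rules and left-out libraries. Scripts were tested on simulated data. Doublets were predicted with Scrublet in scanpy 1.11.5 at 0.4% per 1000 barcodes and kept unless stated. Treatment comparisons print TMM-normalised CPM. The check of the rule and segment genes between cell sets, the marker sums, Malat1 and the leukocyte levels and percentages use CPM without TMM factors. Gene positions are from GENCODE release M21 by gene ID, and promoter windows from RefSeq.

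Named genes are called genes whose groups do not overlap and whose log2 CPM averages 5 or more, up to 12 in each direction by size and outside the rule and the leukocyte and plasma cell lists. To these were added up to 6 uncalled genes where fewer than 12 passed, up to 5 genes per list, the 6 genes with the lowest p for the segment difference, and Glul, Cdkn1a, Lcn2, Igkc, Slc16a10, Col8a1, Acsm3 and Cyp2a4. The members and gene lists were chosen with earlier results of these data known. A gene of the naming rule is not reported here. The rule genes and the 13 mitochondrial genes were not tested as findings.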

Additional observations from a re-analysis of the deposited data

Results flagged for a closer look

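Genes were flagged from the called genes named by size, the genes added by name and the 6 with the lowest p for the segment difference. That choice favours a difference, which was found for 16.5% of all genes tested. Cyp4a12a, Aadat, Cd36 and Odc1, named above as uncalled in S3, also differed but lay outside this choice. In 24 of the genes looked at, the treatment effect differed between S3 and S1-S2 cells of the same libraries (edgeR, adjusted p under 0.05). Given as the S3 minus the S1-S2 log2 fold change, it was higher in S3 for Hsd11b1 (1.85), Acsm3 (1.61), Hpd (1.60), Ly6e (1.06), Cndp2 (1.05), Slco1a1 (1.04), Ly6a (1.03), Cyp2a4 (0.79), Azgp1 (0.58), Alas1 (0.52), Dnajc12 (0.51) and Glul (0.41). It was lower in S3 for Spp1 (-2.33), Slc16a10 (-1.63), Ccdc141 (-1.60), Apoe (-1.43), Gm26917 (-1.10), Auts2 (-1.01), Nhs (-0.94), Atp2a2 (-0.84), Ror1 (-0.75), Fras1 (-0.63), Arhgap26 (-0.59) and AC149090.1 (-0.52). All 24 lost the call without BPTES library 1, when no gene at all was called, but the differences there were 0.770 to 1.51 times those given (median 1.11). None of the 24 changed sign under the alternatives run. Counting that loss, Ly6a lost it under 6 alternatives, Hpd and Spp1 under 4, Auts2 under 3, and Ly6e, Nhs and Glul under 2. With a library left out the difference for Hpd ranged from 1.15 to 2.43 and for Ly6a from 0.743 to 1.30. For Spp1 it ranged from -2.61 to -2.06 and for Auts2 from -1.28 to -0.733. Hpd read 0.452 to 1.52 CPM in S1-S2 sums and Slco1a1 2.07 to 2.63 CPM, so the differences for these 2 genes rest on low counts there.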

How the results depend on the processing

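The 122 calls in S3 cells became 330 with at least 10 Slc7a13 UMIs, 235 with no Vcam1 and Havcr1 limit, 633 with no low-count filter and 1 to 607 with a library left out. The 22 higher became 37 with DESeq2, 66 with at least 10 Slc7a13 UMIs, 36 with counts per barcode capped, 43 with no injury limit, 146 with no filter and 0 to 133 with a library left out. Of the S3 genes lower under BPTES, the 100 reported became 264 and 66 with at least 10 and at least 3 Slc7a13 UMIs, 192 with no injury limit, 487 with no filter and 1 to 474 with a library left out. With the replicate block the counts were 1073, 300 higher and 773 lower. The labels do not say that the numbers pair the libraries, and deviations of same-numbered libraries correlated at 0.155 over 12783 genes. In S1-S2 cells 717 calls became 1891 with DESeq2, 2702 with no filter, 4717 with the replicate block and 10 to 1241 with a library left out. The 2482 segment differences became 0 to 1873 with a library left out. The cause of these shifts was not tested. The S3 fold change of Atp2a2, 0.06 and not called, ranged from -0.16 to 0.24 with a library left out. With counts per barcode capped, Slc12a1 went from 2.54 to -0.47 and Umod from 2.58 to -0.11, both uncalled. Capping and leaving out fibroblast-rich barcodes were chosen after seeing the data. The difference in the S3 share of proximal tubule cells, -3.42 percentage points, kept its sign under every alternative run. It was -1.69 with the 25% mitochondrial limit, -1.54 with at least 10 Slc7a13 UMIs, -0.14 with cells thinned and -0.88 to -5.95 with a library left out.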
